A study of Mus musculus with 6 samples.

Results

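The 10 mouse genes described here encode the TGF-beta ligands (*Tgfb1*, *Tgfb2*, *Tgfb3*), their receptors (*Tgfbr1*, *Tgfbr2*, *Tgfbr3*) and the latent TGF-beta binding proteins, or LTBPs (*Ltbp1*, *Ltbp2*, *Ltbp3*, *Ltbp4*). They were chosen by name from a table of 32350 gene entries, and all 10 were among the 13535 genes that could be tested. RNA was taken from the whole calvaria, or skull roof, of 3 homozygous mutant (Tmem53-/-) and 3 heterozygous (Tmem53+/-) mice of the B6N strain at postnatal day 3, with 1 library per animal. *Tmem53* encodes a protein of the nuclear envelope that was disrupted by frame-shift mutations made with CRISPR/Cas9, and the sample labels do not name which of the established mutant lines was used. The controls were heterozygous littermates, so every animal carried at least 1 mutant allele and no wild-type library entered the comparison. Levels are FPKM, fragments scaled to transcript length and library size, so that levels of different genes can be set side by side.

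TGF-beta ligands are secreted as latent complexes, in which the mature dimer stays wrapped in its own propeptide. The propeptide is commonly bound to an LTBP, which tethers the complex to fibrillin and fibronectin in the matrix, and integrins or proteases release the active ligand. The free ligand binds TGFBR2, which recruits and phosphorylates TGFBR1, and TGFBR1 phosphorylates SMAD2 and SMAD3. Bone matrix is a large store of latent TGF-beta, and the ligands act on osteoblast progenitors, on the sutures of the skull and on the coupling between osteoclasts and osteoblasts.

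Of the 10 genes, 3 differed between genotypes at an adjusted p under 0.05, by limma on log2(FPKM + 0.5) with Benjamini-Hochberg adjustment over all genes tested. The ligand gene *Tgfb2* was higher in Tmem53-/- calvaria and the receptor genes *Tgfbr1* and *Tgfbr3* were lower. *Tgfb1*, *Tgfb3*, *Tgfbr2* and the 4 LTBP genes did not pass the test. Over all genes tested, 956 passed it, which is 7.06%, with 465 higher (3.44%) and 491 lower (3.63%) in the mutants. Without the 2 libraries that stand apart from their groups, described below, 6 of the 10 genes were called, against 27.4% of all genes. In that run all mutants were male and all controls female, by *Xist* as given below. When any 1 library was left out, 0 to 4 of the 10 were called, against 0.377% to 16.4% of all genes. The median log2 fold change of the 10 genes was 0.14, against 0.05 for all genes tested. The values of the genotypes did not overlap for 3 of the 10 genes, the same ones, against 37.2% of all genes tested.

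Sequence around the start sites is shown for 3 genes, *Tgfb2* and *Tgfbr1*, which differed between genotypes, and *Tgfb1*, the ligand gene set beside *Tgfb2* for comparison. The windows are RefSeq promoters of the mouse assembly GRCm38.p6, which is not the build of the deposited table, and run from 250 bases before to 50 bases after the annotated start, 5′ to 3′ on the gene's strand. *Tgfb2* is at chr1:186705940-186706239 on the minus strand, *Tgfb1* at chr7:25686752-25687051 on the plus strand and *Tgfbr1* at chr4:47352972-47353271 on the plus strand. Capitals mark matches, on either strand, to 7 searched motifs. The TATA box was searched as TATAAA, the GC box bound by SP1 as GGGCGG and the SMAD box as CAGAC. The palindromic E-box was searched as CACGTG and the RUNX site as TGTGGT. The AP-1 site was searched as TGACTCA and the cyclic AMP response element as TGACGTCA, and no marked matches overlapped in the windows shown.
Tgfb2: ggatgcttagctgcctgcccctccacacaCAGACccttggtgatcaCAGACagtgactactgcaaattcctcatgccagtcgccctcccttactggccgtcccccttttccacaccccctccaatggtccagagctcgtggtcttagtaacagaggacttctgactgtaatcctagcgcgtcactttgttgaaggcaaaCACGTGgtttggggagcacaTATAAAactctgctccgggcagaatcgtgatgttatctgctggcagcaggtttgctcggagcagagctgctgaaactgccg
Tgfb1: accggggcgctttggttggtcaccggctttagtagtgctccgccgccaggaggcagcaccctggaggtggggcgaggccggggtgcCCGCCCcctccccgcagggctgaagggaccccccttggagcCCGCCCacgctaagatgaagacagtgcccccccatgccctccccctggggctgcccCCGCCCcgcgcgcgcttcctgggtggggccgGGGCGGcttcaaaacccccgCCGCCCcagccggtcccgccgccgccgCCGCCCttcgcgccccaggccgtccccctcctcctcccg
Tgfbr1: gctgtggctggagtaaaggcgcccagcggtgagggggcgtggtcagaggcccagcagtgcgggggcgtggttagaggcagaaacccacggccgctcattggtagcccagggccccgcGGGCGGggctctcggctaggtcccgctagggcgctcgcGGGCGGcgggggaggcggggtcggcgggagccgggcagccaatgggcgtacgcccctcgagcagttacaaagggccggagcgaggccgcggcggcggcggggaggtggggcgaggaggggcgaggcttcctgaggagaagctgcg

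The windows shown differed in composition, with 54.3% G and C for *Tgfb2*, 77% for *Tgfb1* and 74.7% for *Tgfbr1*. The *Tgfb2* window held a TATA box whose first base lies at -31 from the start site, an E-box at -51 and SMAD boxes at -221 and -204. TATAAA occurs in 13.6% of the 32851 mouse promoter windows of this length, CACGTG in 7.15% and CAGAC in 49.6%. The *Tgfb1* window held 6 GC boxes and none of the other motifs, and the *Tgfbr1* window shown held 2 GC boxes, at -133 and -95. A second *Tgfbr1* window, at chr4:47385966-47386265 and not shown, had 52% G and C. It held a SMAD box at -203 and none of the other motifs. GGGCGG was present in 6 of the 12 windows annotated to 8 of the 10 genes and in 35.7% of all windows, and TATAAA in 1 of these 12, that of *Tgfb2*. These matches describe letters in a window and not sites of binding.

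Before the individual genes, the libraries are described. Pearson's r across genes was 0.982 between Tmem53-/- replicates 1 and 2, with replicate 3 at 0.952 and 0.959 to them, and it was 0.991 between Tmem53+/- replicates 1 and 3, with replicate 2 at 0.956 and 0.957 to them. Mutant replicate 3 and heterozygous replicate 2 therefore stand apart from their groups, and values without them are given beside the results they change most. By *Xist*, whose RNA is made from the inactive X of females, all 3 mutants and heterozygous replicate 2 were male, and heterozygous replicates 1 and 3 were female. Without heterozygous replicate 2, all mutants were male and all controls female, so genotype and sex cannot be told apart in those runs. Both females were heterozygous, so with sex as a covariate the genotype difference rests on heterozygous replicate 2, the only male control. The run without both libraries that stand apart set mutants 1 and 2 against heterozygous replicates 1 and 3. *Tmem53* itself was at 13.9, 10.9 and 10 FPKM in the mutants and at 7.22, 6.38 and 7.16 FPKM in the heterozygous animals, and since a frame shift need not lower a transcript this level does not check the labels. Chondrocyte markers were called higher for 11 of 15 genes, with sums of 6070, 3220 and 838 FPKM in mutants 1, 2 and 3 and 166 to 186 FPKM in heterozygous libraries. Osteoblast markers were called higher for 6 of 12. Of the 12, *Col1a1*, *Col1a2* and *Spp1* are listed at 0 in some libraries and were not called. Osteoclast markers were called lower for 6 of 9, with sums of 210, 236 and 346 FPKM in mutants 1, 2 and 3 and 3910, 696 and 2800 FPKM in heterozygous 1, 2 and 3. Macrophage markers were called for 0 of 11 genes, with sums of 147 to 887 FPKM in the mutants and 1030 to 1180 FPKM in the heterozygous libraries. Of the endothelial markers 1 could be tested and was not called, with sums of 1.02 to 1.86 FPKM in the mutants and 1.11 to 1.53 FPKM in the heterozygous libraries, and red blood cell markers were near 0 in every library. Of the endothelial list, *Tie1* and *Cldn5*, and of the red blood cell list, *Hba-a1*, *Hba-a2*, *Hbb-b1* and *Slc4a1*, are listed at 0 throughout. In whole tissue, fewer cells of a type and less RNA per cell cannot be told apart, and the part that these cell types and sex have in the results below was not tested unless a value is given.

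**Figure D1:**
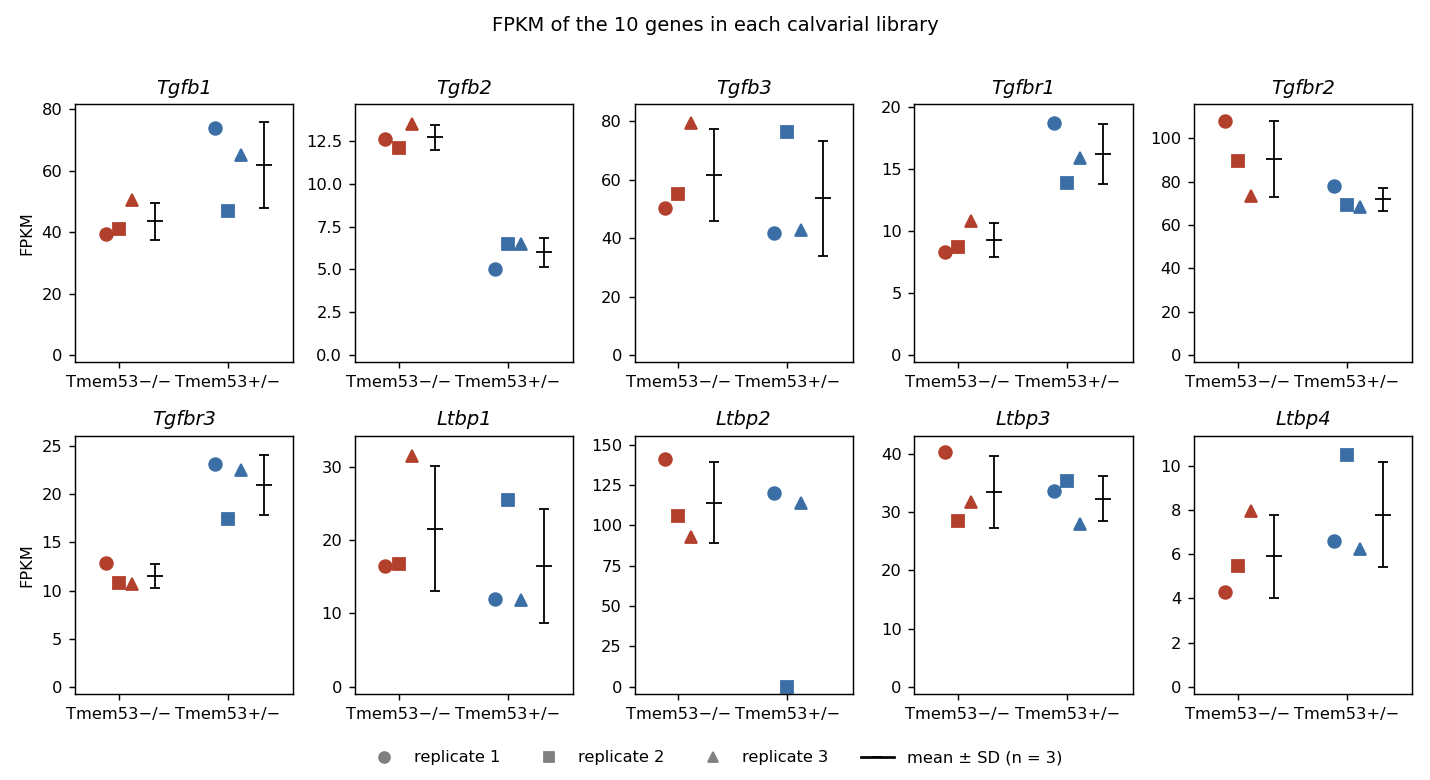
FPKM (vertical axis of each panel, starting at 0) of the 10 genes in each library, Tmem53-/- in red and Tmem53+/- in blue, with one symbol per replicate and the mean ± SD (n = 3) beside each group. The groups are separate for *Tgfb2*, *Tgfbr1* and *Tgfbr3*, and heterozygous replicate 2 is listed at 0 for *Ltbp2*, for which no heterozygous mean is drawn.

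Among the ligands, *Tgfb2* encodes TGF-beta 2, whose loss in mice is known to disturb the skull and other parts of the skeleton. *Tgfb2* was at 12.6, 12.1 and 13.5 FPKM in Tmem53-/- calvaria, against 5.03, 6.49 and 6.47 FPKM in Tmem53+/- calvaria. Every mutant value lay above every heterozygous value, and the 3 mutants were close to each other. The means were 12.7 ± 0.717 and 6 ± 0.835 FPKM (SD, n = 3 each), a ratio of 2.12. On the log2 scale the mutants were higher by 1.03 (SE 0.123, 95% interval 0.74 to 1.33, limma adjusted p = 0.0134), and the exact two-sided permutation test gave p = 0.1, the smallest that 3 against 3 allow. *Tgfb2* held rank 107 of the 13535 genes by p. Leaving out heterozygous replicate 3 gave a limma adjusted p of 0.0656 and leaving out mutant replicate 1 one of 0.0654. It lay between 0.0074 and 0.0759 over 16 alternatives. The lowest came without both libraries that stand apart, which sets male mutants against female controls. The log2 fold change of *Tgfb2* stayed between 0.92 and 1.09. With sex as a covariate, where the difference rests on the male heterozygous replicate 2, it was 0.92 (limma adjusted p = 0.0352). The gene lies on chromosome 1 from 188446670 to 188530577 in the deposited table, which the study made on NCBI build37.2; the same build holds for the positions below.

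Markers of bone-forming cells moved with genotype beside *Tgfb2*, as did the chondrocyte markers given above. *Alpl*, the gene of the alkaline phosphatase of osteoblasts, was at 138, 121 and 182 FPKM in Tmem53-/- calvaria and 42.3, 51.5 and 50.4 FPKM in Tmem53+/- calvaria (limma adjusted p = 0.0107). *Sp7*, an osteoblast transcription factor gene, was at 11.7, 10.6 and 19.7 FPKM in the mutants and 5.15, 4.16 and 4.24 FPKM in the heterozygous libraries (limma adjusted p = 0.0255). The part of these cell types in the *Tgfb2* result was not tested.

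*Tgfb1* encodes TGF-beta 1, the ligand that is most abundant in bone matrix. It was at 39.3, 41 and 50.6 FPKM in Tmem53-/- calvaria, against 74, 46.8 and 65 FPKM in Tmem53+/- calvaria (43.6 ± 6.09 and 61.9 ± 13.9 FPKM, SD, n = 3 each). The groups overlapped, because mutant 3 was above heterozygous 2. The difference on the log2 scale was -0.48 (SE 0.192, 95% interval -0.95 to -0.02) and did not pass the test (limma adjusted p = 0.165). Without heterozygous replicate 2 it was -0.67 (limma adjusted p = 0.0341), and without both libraries that stand apart -0.78 (limma adjusted p = 0.00541). Both of these runs set male mutants against female controls. With sex as a covariate, where the difference rests on heterozygous replicate 2, it was -0.11. *Tgfb1* lies on chromosome 7 from 26471927 to 26490098.

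*Tgfb3*, the gene of TGF-beta 3, a ligand known for its role in palate fusion, was the most abundant ligand transcript in the mutants. Its values were 50.5, 55 and 79.4 FPKM in Tmem53-/- calvaria and 41.8, 76.3 and 42.7 FPKM in Tmem53+/- calvaria. The 2 highest values were those of the libraries that stand apart, 1 in each group, so the spread within a group was as large as the distance between them. The log2 fold change was 0.23 (SE 0.282, 95% interval -0.45 to 0.91, limma adjusted p = 0.638), an interval that reaches on both sides of 0. Without both libraries, which sets male mutants against female controls, it was 0.31 (limma adjusted p = 0.0296). It was -0.33 with sex as a covariate, where the difference rests on heterozygous replicate 2. *Tgfb3* lies on chromosome 12 from 87397692 to 87419991.

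The summed level of the 3 ligand transcripts was 102, 108 and 143 FPKM in Tmem53-/- calvaria and 121, 130 and 114 FPKM in Tmem53+/- calvaria, ranges that overlapped. The share of *Tgfb2* in this sum was 12.3%, 11.2% and 9.42% in the mutants and 4.17%, 5.01% and 5.66% in the heterozygous libraries, with no overlap. *Tgfb1* was 38.4%, 37.9% and 35.3% of the sum in the mutants and 61.2%, 36.1% and 56.9% in the heterozygous libraries, where replicate 2 lay within the range of the mutants. The ratio of *Tgfb1* to *Tgfb2* in FPKM was 3.12, 3.39 and 3.74 in the mutants, against 14.7, 7.21 and 10.1 in the heterozygous libraries. These shares follow from the values above and are given with no test.

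**Figure D2:**
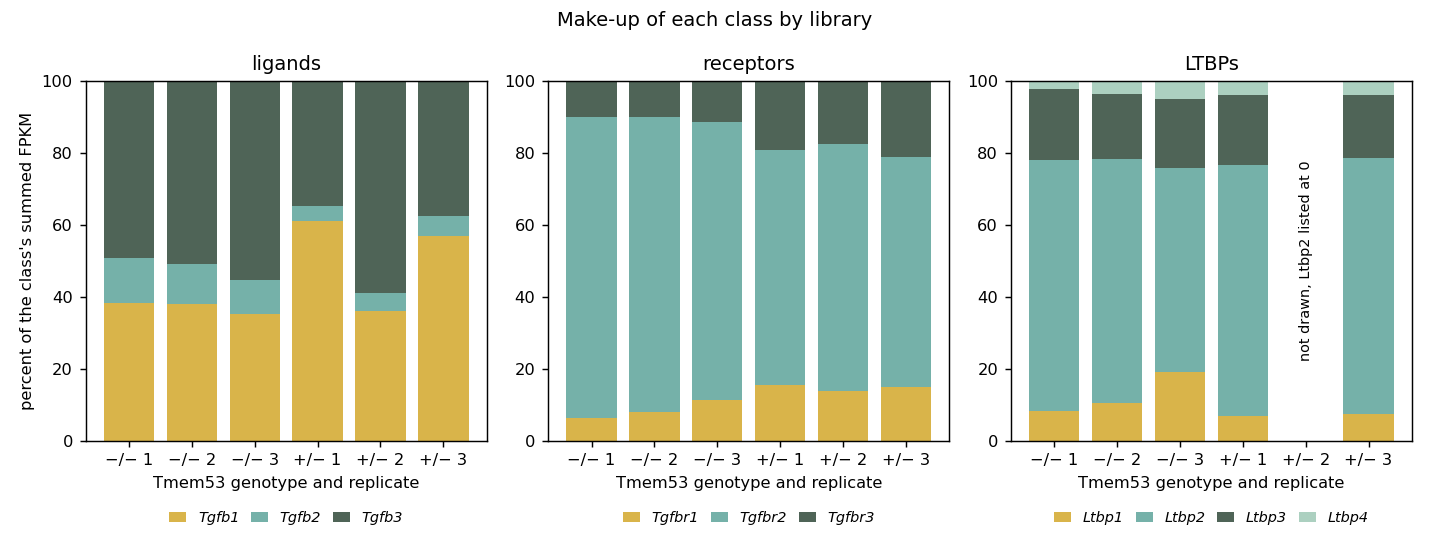
Percent of the summed FPKM of the ligands, the receptors and the LTBPs (vertical axes) that each gene took in each library, with the Tmem53-/- libraries left of the Tmem53+/- libraries. Heterozygous replicate 2 is not drawn for the LTBPs, because *Ltbp2* is listed at 0 there. *Tgfb2* took 9.42% to 12.3% of the ligand sum in mutants and 4.17% to 5.66% in heterozygous libraries, and *Tgfbr2* took 77.3% to 83.6% of the receptor sum in mutants and 64% to 68.8% in heterozygous libraries.

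Among the receptors, *Tgfbr1* encodes the type I receptor kinase that phosphorylates SMAD2 and SMAD3. *Tgfbr1* was at 8.28, 8.68 and 10.8 FPKM in Tmem53-/- calvaria, against 18.7, 13.9 and 15.9 FPKM in Tmem53+/- calvaria (9.26 ± 1.37 and 16.2 ± 2.43 FPKM, SD, n = 3 each, a ratio of 0.573). All mutant values lay below all heterozygous values, and mutant 3 and heterozygous 2 were the closest pair. In log2 terms the change was -0.77 (SE 0.151, 95% interval -1.13 to -0.41, limma adjusted p = 0.0378), with p = 0.1 in the exact two-sided permutation test. The call was lost without heterozygous replicate 1 (limma adjusted p = 0.135), heterozygous replicate 3 (0.129), mutant replicate 1 (0.127) or mutant replicate 2 (0.0997), and the log2 fold change lay between -0.98 and -0.57 over 16 alternatives. With sex as a covariate, where the difference rests on heterozygous replicate 2, the log2 fold change was -0.57 and the call was lost. Without both libraries that stand apart, male mutants against female controls, the limma adjusted p was 0.0053. Over the 16 alternatives it ran from 0.0053 to 0.135. The gene lies on chromosome 4 from 47365130 to 47427841.

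*Tgfbr2* encodes the type II receptor, which binds the ligand first. It was the most abundant of the receptor transcripts, at 108, 89.5 and 73.5 FPKM in Tmem53-/- calvaria and 78.1, 69.1 and 68.3 FPKM in Tmem53+/- calvaria. Mutants 1 and 2 were above all heterozygous libraries and mutant 3 was within their range. The log2 fold change was 0.32 (SE 0.156, 95% interval -0.06 to 0.69) and did not pass the test (limma adjusted p = 0.24). *Tgfbr2* lies on chromosome 9 from 115996812 to 116084481.

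*Tgfbr3* encodes betaglycan, a co-receptor without a kinase that presents TGF-beta 2 in particular to TGFBR2. *Tgfbr3* was at 12.9, 10.8 and 10.7 FPKM in Tmem53-/- calvaria, against 23.1, 17.4 and 22.5 FPKM in Tmem53+/- calvaria (11.5 ± 1.26 and 21 ± 3.13 FPKM, SD, n = 3 each, a ratio of 0.547). All mutant values lay below all heterozygous values, also that of heterozygous 2, the lowest control. In log2 terms the change was -0.84 (SE 0.141, 95% interval -1.18 to -0.5, limma adjusted p = 0.0284), with p = 0.1 in the exact two-sided permutation test. The call was lost without heterozygous replicate 1 (limma adjusted p = 0.115), heterozygous replicate 3 (0.116), mutant replicate 1 (0.0839), mutant replicate 2 (0.0825) or mutant replicate 3 (0.0548), and the log2 fold change lay between -0.96 and -0.58 over 16 alternatives. It was -0.58 with sex as a covariate, where the difference rests on heterozygous replicate 2 and the call was lost. Over the alternatives the limma adjusted p ran from 0.00572 to 0.116. The lowest came without both libraries that stand apart, which sets male mutants against female controls. The gene lies on chromosome 5 from 107535588 to 107718614.

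*Tgfbr2* was the larger part of the receptor transcripts, and the receptor sum overlapped between genotypes, at 130, 109 and 95 FPKM in Tmem53-/- calvaria and 120, 100 and 107 FPKM in Tmem53+/- calvaria. Its make-up did not overlap. *Tgfbr2* took 83.6%, 82.1% and 77.3% of the sum in the mutants and 65.1%, 68.8% and 64% in the heterozygous libraries. The ratio of *Tgfbr2* to *Tgfbr1* was 13.1, 10.3 and 6.79 in the mutants and 4.17, 4.98 and 4.31 in the heterozygous libraries, and mutant 3 was the mutant closest to the controls. The ratio of *Tgfbr3* to *Tgfbr2* was 0.119, 0.121 and 0.145 in the mutants and 0.295, 0.252 and 0.33 in the heterozygous libraries.

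**Figure D3:**
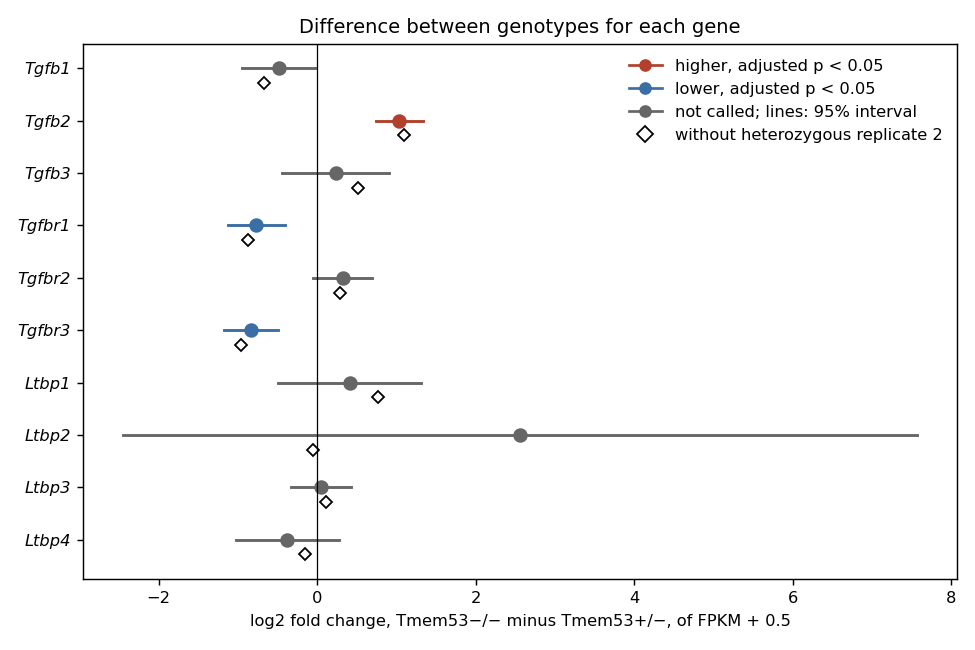
Log2 fold change of each gene, Tmem53-/- minus Tmem53+/-, on the scale of log2(FPKM + 0.5) (horizontal axis), as circles with 95% intervals from limma, and as open diamonds the value without heterozygous replicate 2. The intervals of *Tgfb2* (0.74 to 1.33), *Tgfbr1* (-1.13 to -0.41) and *Tgfbr3* (-1.18 to -0.5) are those of the called genes, and the wide interval of *Ltbp2* comes with the value of 0 in heterozygous replicate 2.

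The 4 LTBP genes did not pass the test. *Ltbp1* encodes an LTBP that binds all 3 latent ligands, and its values were 16.5, 16.7 and 31.4 FPKM in Tmem53-/- calvaria and 12, 25.4 and 11.8 FPKM in Tmem53+/- calvaria. Mutant 3 and heterozygous 2 had the highest *Ltbp1* level of their genotypes. Its log2 fold change was 0.41 (SE 0.373, 95% interval -0.49 to 1.31, limma adjusted p = 0.516). Without both of these libraries, again male mutants against female controls, it was 0.47 (limma adjusted p = 0.0104). It was -0.30 with sex as a covariate, where the difference rests on heterozygous replicate 2. *Ltbp1* lies on chromosome 17 from 75404742 to 75792168.

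*Ltbp2* encodes the LTBP that does not bind latent TGF-beta and is a component of elastic microfibrils. It was at 141, 106 and 92.9 FPKM in Tmem53-/- calvaria, and at 120 and 114 FPKM in Tmem53+/- replicates 1 and 3, while it is listed at 0 in heterozygous replicate 2. The other entry with the same span, *D030025P21Rik*, is also listed at 0 in that library, beside 18.3 and 16.4 FPKM in heterozygous replicates 1 and 3. Such a 0 can be a failed estimate, and 27 genes are listed at 0 beside at least 20 FPKM in another library of the same genotype. The fitted log2 fold change of *Ltbp2*, 2.56 (SE 2.08, limma adjusted p = 0.461), rests on that 0; without heterozygous replicate 2 it was -0.06 (limma adjusted p = 0.823), and without mutant replicate 3 as well it was 0.07 (limma adjusted p = 0.742). With sex as a covariate, which sets the mutants against that library, it was 7.81 (limma adjusted p = 0.000711). *Ltbp2* lies on chromosome 12 from 86123864 to 86220705.

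*Ltbp3*, which encodes an LTBP that binds latent TGF-beta and is needed for normal bone growth in mice, was at 40.4, 28.5 and 31.7 FPKM in Tmem53-/- calvaria and at 33.6, 35.3 and 27.9 FPKM in Tmem53+/- calvaria. The ranges lay over each other, and the log2 fold change was 0.05 (SE 0.158, 95% interval -0.33 to 0.43, limma adjusted p = 0.881). This interval holds no change of 1 on the log2 scale in either direction. *Ltbp3* lies on chromosome 19 from 5740903 to 5771401. *Ltbp4*, whose product mainly binds latent TGF-beta 1 and is known for elastic fibre assembly, was the lowest of the class, at 4.28, 5.45 and 7.98 FPKM in Tmem53-/- calvaria and 6.61, 10.5 and 6.24 FPKM in Tmem53+/- calvaria. The *Ltbp4* values overlapped, and its log2 fold change was -0.38 (SE 0.273, 95% interval -1.03 to 0.28, limma adjusted p = 0.409). *Ltbp4* lies on chromosome 7 from 28090159 to 28122631.

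In the order of mean levels, *Ltbp2* and *Tgfbr2* led in both genotypes, with *Tgfb3*, *Tgfb1*, *Ltbp3* and *Ltbp1* next in the mutants, then *Tgfb2*, *Tgfbr3*, *Tgfbr1* and last *Ltbp4*. In Tmem53-/- calvaria the only neighbours in this order whose ranges did not overlap were *Ltbp1* over *Tgfb2* and *Tgfbr1* over *Ltbp4*. In Tmem53+/- calvaria *Tgfb2* was last, at 6 ± 0.835 FPKM, below *Ltbp4* at 7.8 ± 2.38 FPKM (SD, n = 3 each), and these neighbours overlapped. There *Tgfb1* and *Tgfb3* overlapped, as did *Tgfbr3*, *Ltbp1* and *Tgfbr1*. *Tgfb2* thus stood above *Tgfbr1* and *Tgfbr3* in the mutants by mean level and below both in the heterozygous libraries, and the ranges of *Tgfb2* and *Tgfbr3* overlapped in the mutants. By mean level over the 6 libraries, *Ltbp2* was at percentile 93.9 of the genes tested, *Tgfbr2* at 92.8, *Tgfb2* at 49.2 and *Ltbp4* at 40.3. The percentile of *Ltbp2* and its heterozygous mean, 78 ± 67.6 FPKM (SD, n = 3), include the 0 listed in heterozygous replicate 2.

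The genes closest in pattern to each called gene were found among 12547 genes whose mean reached 1 FPKM, by the root mean square difference of centred log2(FPKM + 0.5) over the 6 libraries. For *Tgfb2* these were *Gas5* (0.0404), a host gene of small nucleolar RNAs, *Snhg12* (0.0897), another such host gene, and *2410006H16Rik* (0.105). *Gas5* was at 402, 354 and 410 FPKM in Tmem53-/- calvaria and 162, 204 and 210 FPKM in Tmem53+/- calvaria. For *Tgfbr1* they were *Edem1* (0.0473), which acts in the disposal of misfolded glycoproteins, *Pde3b* (0.0476), a phosphodiesterase gene, and *Uap1l1* (0.0576). *Edem1* was at 18.9, 20.1 and 25.4 FPKM in Tmem53-/- calvaria and 40, 32.9 and 34.8 FPKM in Tmem53+/- calvaria. For *Tgfbr3* they were *Exoc6* (0.0681), a gene of the exocyst, *Slc38a6* (0.0802) and *Ppap2b* (0.0807), a lipid phosphatase gene.

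The other genes of the pathway were read from 5 lists, which share some genes, and the target list also holds *Ltbp2*. Of 19 tested genes for the release of latent TGF-beta, 1 was called higher and 4 lower in Tmem53-/- calvaria, with a median log2 fold change of -0.3. The called genes were 26.3% of this list, against 7.06% of all genes tested. *Itgb8*, the chain that pairs with *Itgav* in an integrin that activates latent TGF-beta, was at 2.46, 1.88 and 3.52 FPKM in the mutants and 0.742, 0.893 and 0.644 FPKM in the heterozygous libraries (log2 fold change 1.28, limma adjusted p = 0.0287). *Itgav*, the alpha chain of several such integrins, was at 42.4, 46.2 and 42.4 FPKM in the mutants and 64.4, 63.1 and 56.1 FPKM in the heterozygous libraries (-0.48, limma adjusted p = 0.037). Both chains of that integrin were thus called, in opposite directions. *Furin*, the protease that cuts the ligand precursor, was at 22.1, 21.5 and 22 FPKM in the mutants and 32.3, 30.4 and 28.9 FPKM in the heterozygous libraries (-0.47, limma adjusted p = 0.0287). *Itgb3* (-1.52, limma adjusted p = 0.0462) and *Mmp9* (-8.31, limma adjusted p = 0.0107) were also lower, and both stand on the osteoclast marker list too. *Mmp9* was at 0.901, 1.08 and 0.34 FPKM in the mutants and 1060, 87.1 and 646 FPKM in the heterozygous libraries, so its fold change depends on the pseudocount.

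Of 11 tested matrix anchors of LTBPs, 2 were called higher and 1 lower, with a median of 0.09. The called genes were 27.3% of this list, against 7.06% of all genes tested. *Fn1*, listed at 0 in mutant replicate 3 beside 2330 and 2450 FPKM in mutant replicates 1 and 2, was not called. *Fbn2*, the gene of the fibrillin that prevails in developing microfibrils, was at 76.4, 53.4 and 44.3 FPKM in Tmem53-/- calvaria and 13.9, 11.2 and 12.7 FPKM in Tmem53+/- calvaria (2.13, limma adjusted p = 0.00785). *Fbn1*, its paralog, was at 141, 150 and 247 FPKM in the mutants and 184, 228 and 163 FPKM in the heterozygous libraries (-0.13, limma adjusted p = 0.769). Only *Fbn2* of these 2 fibrillin genes had groups that did not overlap. *Fbln5*, an elastic fibre gene, was higher (0.85, limma adjusted p = 0.0223) and *Emilin2* lower (-0.97, limma adjusted p = 0.0267).

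Of 14 tested binders and co-receptors of TGF-beta, 2 were called higher and 0 lower, with a median of 0.29. The called genes were 14.3% of this list, against 7.06% of all genes tested. With sex as a covariate, where the difference rests on heterozygous replicate 2, the median was 0.14. *Aspn*, the gene of asporin, a small proteoglycan that binds TGF-beta 1, was at 449, 427 and 547 FPKM in Tmem53-/- calvaria and 282, 216 and 287 FPKM in Tmem53+/- calvaria (0.86, limma adjusted p = 0.0368). *Tgfb1i1* was also higher (0.53, limma adjusted p = 0.0378), and it encodes a focal adhesion adaptor rather than a protein that binds the ligand. Of 18 tested SMADs and regulators, 1 was called, with a median of 0.06. This is 5.56% of the list, below the 7.06% of all genes tested. *Smad3* was at 15, 13.1 and 15.8 FPKM in the mutants and 9.7, 10.3 and 9.25 FPKM in the heterozygous libraries (0.56, limma adjusted p = 0.0327). The other receptor-phosphorylated SMAD of the pathway, *Smad2*, was at 16.5, 18 and 21.7 FPKM in the mutants and 14.5, 17.1 and 15 FPKM in the heterozygous libraries (0.26, limma adjusted p = 0.242), and the inhibitory *Smad7* differed by 0.01 on the log2 scale (limma adjusted p = 0.982). Whether *Smad3* and *Smad2* differ in their change was not tested.

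Of 34 tested TGF-beta target genes, 0 were called higher and 4 lower in Tmem53-/- calvaria, with a median log2 fold change of 0. The called genes were 11.8% of this list, against 7.06% of all genes tested. Among the 34, *Fn1*, *Col1a1*, *Col1a2*, *Col3a1* and *Ltbp2* are listed at 0 in heterozygous replicate 2, mutant replicate 3 or both. Their fold changes rest on those values, which can be failed estimates. An unadjusted limma p under 0.05 was found for 10 of the 34 genes and for 27.9% of all genes tested. *Tgfbi*, a matrix protein gene named for its induction by TGF-beta, was at 39, 46.4 and 44.2 FPKM in the mutants and 88.8, 69 and 93.9 FPKM in the heterozygous libraries (-0.94, limma adjusted p = 0.0231). *Pdgfb*, a growth factor gene (-1.69, limma adjusted p = 0.0224), *Sphk1*, a sphingosine kinase gene (-1.07, limma adjusted p = 0.0387), and *Adam12*, a metalloprotease gene (-0.89, limma adjusted p = 0.047), were lower as well. *Ctgf*, whose product is a matricellular protein of cartilage and connective tissue, was at 992, 579 and 372 FPKM in the mutants and 137, 279 and 148 FPKM in the heterozygous libraries. Its groups did not overlap, but the log2 fold change of 1.74 did not pass the test (limma adjusted p = 0.0591). *Postn*, the gene of the matrix protein periostin, was at 560, 961 and 1210 FPKM in the mutants and 913, 797 and 795 FPKM in the heterozygous libraries, which overlapped (0.06, limma adjusted p = 0.923).

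These pathway calls moved with single libraries. Of the 15 called genes of the 5 lists, 0 stayed called in each of the 6 comparisons that left out 1 library, and *Fbn2* stayed called in 5 of them, with a highest limma adjusted p of 0.054. Without heterozygous replicate 3 no gene of the lists was called, against 51 of all genes. Their log2 fold changes kept their sign throughout, and that of *Smad3*, for example, ran from 0.51 to 0.64 and that of *Tgfbi* from -1.08 to -0.86. With sex as a covariate, where 10.3% of all genes were called, 8 of the 15 were, among them *Tgfbi* (-0.67, limma adjusted p = 0.0367) and *Itgav* (-0.53, limma adjusted p = 0.0485), but not *Itgb8* (1.13, limma adjusted p = 0.081) or *Smad3* (0.49, limma adjusted p = 0.0734). In that fit the genotype difference rests on heterozygous replicate 2, the only male control. Without both libraries that stand apart, 27.4% of all genes were called, in a run of male mutants against female controls. There, 8 of 34 target genes were called higher and 8 lower, and 1 of 19 release genes was called higher and 10 lower. Of 11 matrix anchors, 4 were called higher and 2 lower, and of 14 binders, 4 higher and 1 lower. Of 18 SMADs and regulators, 1 was called higher and 0 lower (5.56%), below the share of all genes.

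**Figure D4:**
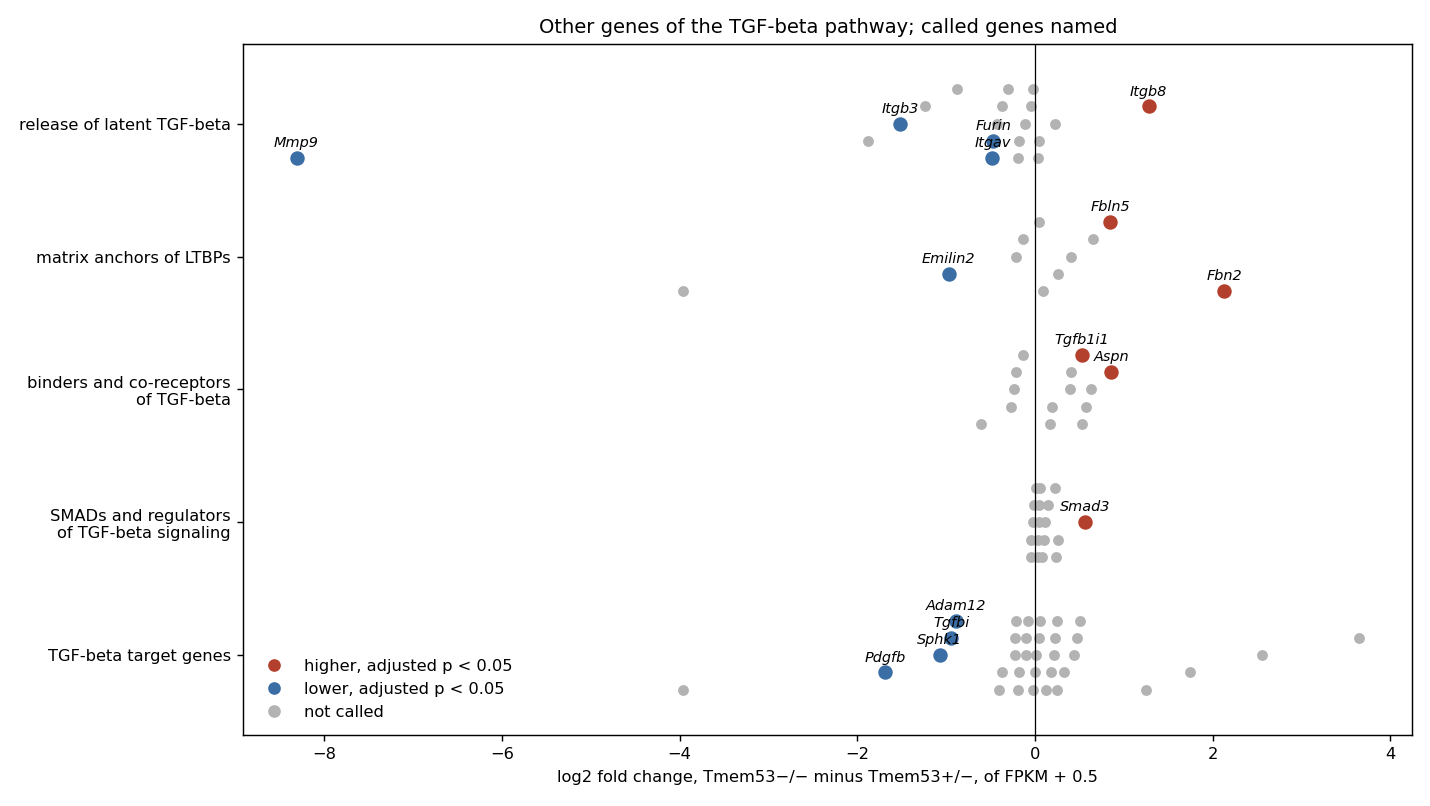
Log2 fold change, Tmem53-/- minus Tmem53+/-, on the scale of log2(FPKM + 0.5) (horizontal axis), of every tested gene of the 5 pathway lists, with called genes named and in colour. There is 1 point per gene and list, so genes on more than 1 list are drawn in each, and *Ltbp2* is drawn among the target genes. Calls stand on both sides of 0 for release and anchoring genes, and the 4 called target genes, *Tgfbi*, *Pdgfb*, *Sphk1* and *Adam12*, lie below 0.

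**Figure D5:**
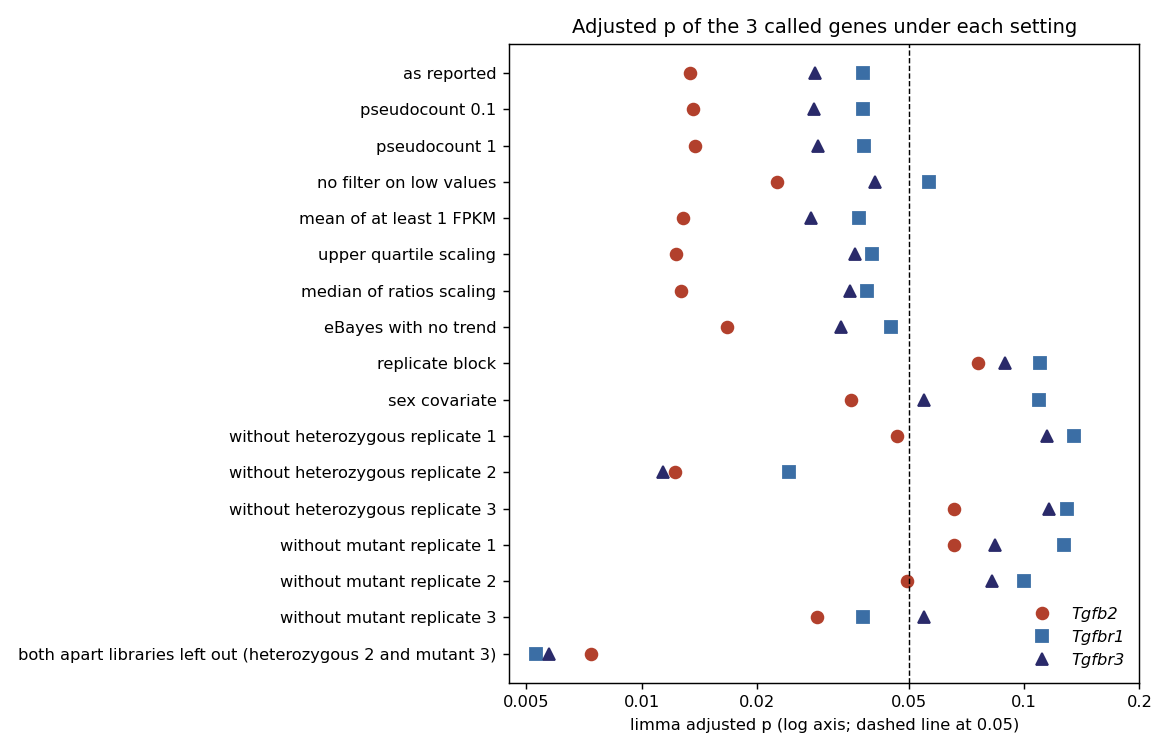
Limma adjusted p (horizontal log axis, dashed line at 0.05) of *Tgfb2*, *Tgfbr1* and *Tgfbr3* with the data as reported and under each of 16 alternatives. All 3 genes lie left of the line with the other pseudocounts and scalings, and right of it under the replicate block and without heterozygous replicate 3 or mutant replicate 1.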

How the data were processed

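Total RNA of 6 calvariae was freed of ribosomal RNA, and paired reads came from strand-specific libraries. Reads were trimmed by the authors (FASTX-toolkit) and mapped to NCBI build37.2 by TopHat2 2.1.1, and levels were estimated by Cufflinks 2.1.1 and Cuffdiff 2.1.1. The deposited values are FPKM, 1 column per animal. The annotation used, and any scaling of 1 library to another, is not given in the sources used here. Read counts are not in the table used; from steps between low values, depth was 0.867 to 1.2 times that of heterozygous replicate 1, and sums of FPKM ran from 569846 to 611928. Precision therefore rests on the spread between animals, and 1 animal per library was taken from the study's figure legend.

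Left out were 7233 entries that carry no symbol and those averaging under 0.5 FPKM, which kept 13535. Log2(FPKM + 0.5) was compared with limma 3.58.1 in R 4.3.3 (eBayes with a trend), with Benjamini-Hochberg adjustment over all genes tested. Fold changes on this scale understate the change of low genes. Calls were made at adjusted p under 0.05. Limma stands in for Cuffdiff, which needs aligned reads. The procedure was tested on simulated data in which genes were drawn independently and no library stood apart, unlike these data. For the 10 genes an exact permutation test (two-sided) was run too, which cannot go below 0.1 here.

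The 10 genes and all lists were chosen with earlier results of these data known. Named are the 10 genes, *Tmem53*, up to 4 called genes per pathway list and direction, *Ctgf*, *Tgfbi*, *Postn*, *Smad2*, *Smad3*, *Smad7*, *Fbn1* and *Itgav*, and the 3 genes closest in pattern to each called one; *Gas5* and *Edem1* were given values as the closest. Marker, sex and overlapping genes were named after their values were seen. Of the genes fixed by name for this purpose, 1 is not reported here. As alternatives, 15 other analyses were run, with other pseudocounts, filters and scalings, no trend, a replicate block, a sex covariate (from *Xist*) and leaving out each library, and leaving out heterozygous replicate 2 and mutant replicate 3 together was added after seeing the data, as were the runs of the pathway lists under these settings.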

Additional observations from a re-analysis of the deposited data

How the results depend on the processing

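The number of called genes, 956 with 3 of the 10 genes among them, was 621 with no filter on low values 1392 with sex as a covariate and 3712 without both libraries that stand apart, and ranged from 51 to 2216 when 1 library was left out. Of the 10 genes, 6 were called without both libraries, and 0 to 4 when 1 library was left out: 0 without heterozygous replicate 3 or mutant replicate 1, and 4 without heterozygous replicate 2. With no filter on low values *Tgfbr1* was not called (limma adjusted p = 0.0565), while other pseudocounts, a mean of at least 1 FPKM, both scalings and eBayes with no trend kept *Tgfb2*, *Tgfbr1* and *Tgfbr3*. Of all called genes, 48.6% were higher in the mutants, and 42% to 53.3% under the 2 scalings.

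With the replicate number as a block, 30 genes and 0 of the 10 were called (limma adjusted p = 0.0759 for *Tgfb2*, 0.11 for *Tgfbr1* and 0.0892 for *Tgfbr3*). Deviations of same-numbered libraries correlated at 0.05, -0.23 and -0.14 across genes, so the numbers were not taken to pair the animals. With 3 libraries per group these values cannot show whether same-numbered animals shared a litter, and the labels do not give litters.

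Signs that changed belong to genes that were not called. With sex as a covariate the genotype difference rests on heterozygous replicate 2, the only male control. There the log2 fold change was -0.30 for *Ltbp1*, -0.09 for *Ltbp3* and -0.33 for *Tgfb3*, and the median of the 10 genes was -0.20. That of *Ltbp3* was 0 with median of ratios scaling and ran from -0.09 (without mutant replicate 1) to 0.15 when 1 library was left out, with -0.05 without heterozygous replicate 3, and that of *Ltbp2* from -0.06 (without heterozygous replicate 2) to 3.89. The 3 animals per genotype, no read counts and a sex that is partly aligned with genotype limit these comparisons, and the causes were not tested. Without heterozygous replicate 2 the alignment of sex with genotype was complete.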

Other observations

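In mutant replicate 3 and heterozygous replicate 2, which stand apart from their groups, 14 of 18 SMADs and regulators of TGF-beta signaling (77.8%) were at the highest level of the genotype in both libraries. The same held for 3506 of all 13535 genes tested (25.9%), for 4 of the 10 genes (*Tgfb2*, *Tgfb3*, *Ltbp1* and *Ltbp4*) and for 16 of 34 target genes (47.1%). These counts were made after the libraries had been seen to stand apart, the genes below were picked after their values were seen, and no test was run on either.

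Among them is *Skil*, the gene of a SMAD corepressor that TGF-beta induces, at 8.16, 8.07 and 13.1 FPKM in Tmem53-/- replicates 1, 2 and 3 and at 7.13, 16 and 6.76 FPKM in Tmem53+/- replicates 1, 2 and 3. *Pmepa1*, a feedback inhibitor gene of the pathway, was at 23.9, 23.3 and 37.2 FPKM in the mutants and 21.5, 47.4 and 21.2 FPKM in the heterozygous animals. *Inhba*, the gene of an activin subunit, was at 23.7, 31.3 and 34.6 FPKM in the mutants and 24.3, 75.2 and 22.7 FPKM in the heterozygous animals. *Smad7* was at 5.39, 6.02 and 9.27 FPKM in the mutants and 6.18, 8.25 and 5.79 FPKM in the heterozygous animals. For these 4 genes the widest distance between animals of 1 genotype exceeded that between the genotype means.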
